A study of Mus musculus with 9 samples.

Results

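Lppr1 (ENSMUSG00000063446, chromosome 4, now named Plppr1 and also known as PRG-3) is a single row among the 18094 rows of a gene count table from mouse cardiac endothelium. It was selected on its measured read counts, which differ between a hypertensive and a normotensive mouse line, so that difference is described without a test. There were 3 groups of 3 RNA sequencing libraries. They held endothelium of BPH/2J mice, a line bred for high blood pressure, aged 22 weeks or 4 weeks, and of normotensive BPN/3J mice aged 22 weeks. Cells were drawn from fresh heart tissue with magnetic beads, and polyA RNA was read with single reads of 100 bases. No treatment, engineered allele or transgene is given in the labels for any group, and no BPN/3J libraries of 4 weeks were analysed here, so line and age both differ between 4-week BPH/2J and BPN/3J. Each blood pressure state is a single inbred line, and line background and blood pressure cannot be told apart. The labels do not say whether replicates came from separate animals, so the p-values rest on library-to-library spread that may be technical only.

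Lppr1 belongs to the plasticity-related genes, a family of membrane proteins that cross the lipid bilayer several times. Their closest relatives are the lipid phosphate phosphatases, enzymes that remove the phosphate from lysophosphatidic acid (LPA) and sphingosine 1-phosphate (S1P) at the cell surface. The Lppr proteins lack residues that this reaction needs, and they are known mainly from brain, where Lppr1 promotes filopodia and neurite growth in cultured cells. LPA and S1P act in blood vessels through receptors coupled to G proteins and take part in endothelial barrier function and vascular tone.

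In the GENCODE M21 annotation the longest Lppr1 transcript has 8 exons and 3940 bases, with the coding sequence from base 382 to base 1359. A partial copy of the gene bears on what its reads can show. The unprocessed pseudogene Gm12451, which lies on the same strand among the neighbours of Lppr1, matched the Lppr1 transcript without a gap from base 763 to base 1359, that is from the last bases of exon 4 through exons 5, 6 and 7 to the stop codon in exon 8. Of the 597 matched positions, 589 (98.7%) were identical. The stretch of 100 bases with most differences, the length of a read, is shown for both in the reference build GRCm38, with the 4 positions that differ in capitals.
Lppr1: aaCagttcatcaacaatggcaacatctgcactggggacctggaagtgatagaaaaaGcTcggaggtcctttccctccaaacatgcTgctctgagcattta
Gm12451: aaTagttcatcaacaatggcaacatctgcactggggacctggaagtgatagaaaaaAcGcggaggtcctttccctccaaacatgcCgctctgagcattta
The stretch covers bases 899 to 998 of the Lppr1 transcript and bases 173 to 272 of that of Gm12451, both on the plus strand of chromosome 4. Counted from the first base of the Lppr1 transcript, with the Lppr1 base first, the differences in it are C901T, G955A, T957G and T984C. The other 4 of the 8 are C765A, C822G, G1055A and C1218T.

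Most of the transcript was not shared with any other annotated transcript. Of its 3891 windows of 50 bases, 266 (6.84%) occurred in a transcript of another gene, and Gm12451 was the only such gene. Of its 3841 windows of read length, 105 (2.73%) were identical in Gm12451. Only exact matches were counted, so windows of the 597 matched positions that hold a difference are left out. Whether reads from those windows were told apart from reads of Gm12451 was not tested. The search took the 3940-base transcript, and not the rest of the 7270 bases of the deposited gene length. Gm12451 has no row in the table used here, and the sources used here do not give how reads with more than a single match were counted. The genomes of BPH/2J and BPN/3J were not analysed here, and whether either line carries a further copy was not tested. The small RNA gene Gm22685 lies inside Lppr1 on the same strand in the annotation and has no row of its own.

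Lppr1 was abundant in both BPH/2J groups and close to undetected in BPN/3J. The 22-week BPH/2J libraries held 2337, 2751 and 3264 reads of Lppr1, the 4-week BPH/2J libraries 1482, 1845 and 1838 reads, and the BPN/3J libraries 4, 4 and 3 reads, at library totals of 28806840 to 32913813 counts. The 3 groups did not overlap in CPM, as was so for 55.7% of tested rows between 22-week BPH/2J and BPN/3J, 59.2% between 4-week BPH/2J and BPN/3J and 51.2% between the ages. The BPN/3J counts sat at 3 or 4, where 3 is the 95% bound for a library without reads. Scaled by the trimmed mean of M values (TMM) to CPM, counts per 1000000 library counts, Lppr1 stood at 75.8, 88.5 and 105 CPM in 22-week BPH/2J, at 48.3, 63.6 and 56.4 CPM in 4-week BPH/2J and at 0.135, 0.139 and 0.105 CPM in BPN/3J. The means were 89.8 ± 14.7, 56.1 ± 7.63 and 0.126 ± 0.0184 CPM (SD, n = 3 libraries each, in the same order of groups).

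**Figure D1:**
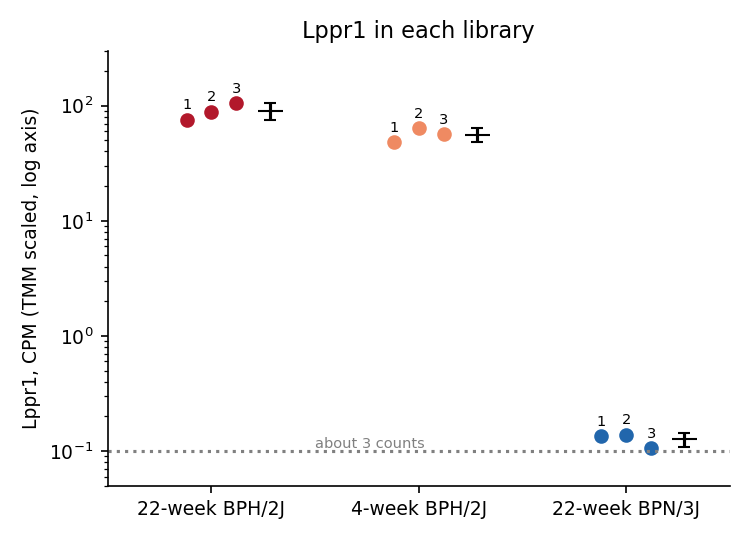
Lppr1 in each of the 9 libraries, in TMM-scaled CPM on a log axis, with replicate numbers beside the points, the mean and SD of each group at the right of its points, and a dotted line at 0.1 CPM, about 3 counts. The BPH/2J libraries lie between 48.3 and 105 CPM and the BPN/3J libraries at 0.139 CPM or below.

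The fitted log2 difference of 22-week BPH/2J over BPN/3J was 9.42, the 3rd highest of the 15277 rows tested. It came after the pseudogene Gm13736 and Sycp1, a gene of meiotic chromosome pairing. These neighbours in rank were named after the values were seen. With BPN/3J so near to 0, a fitted fold depends on the prior count, and the reads give a wide range. Summed over libraries and scaled by library totals without TMM, 8352 reads in 22-week BPH/2J and 11 reads in BPN/3J gave a CPM ratio of 740. Its exact 95% interval of 414 to 1484 covers counting error only. For 4-week BPH/2J over BPN/3J the log2 difference was 8.75, and 5165 reads against 11, scaled likewise without TMM, gave a ratio of 448 (250 to 898). Both differences share the BPN/3J libraries, and the choice of the gene used both.

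Per length, with the deposited gene length of 7270 bases, Lppr1 averaged 12.4 ± 2.03 RPKM, that is CPM per kilobase of gene length, in 22-week BPH/2J, 7.72 ± 1.05 RPKM in 4-week BPH/2J and 0.0174 ± 0.00254 RPKM in BPN/3J (SD, n = 3 each). Its mean RPKM was at or above that of 75.1% of all rows in 22-week BPH/2J, 65.1% in 4-week BPH/2J and 1.63% in BPN/3J. The deposited length equals the 7270 bases covered by the exons of all 3 annotated transcripts, of which the shorter ones retain introns. If all reads came from the 3940-base transcript, its levels per length would be higher. Which transcript the reads came from was not tested.

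Within BPH/2J, Lppr1 rose with age. The gene was chosen for its differences to BPN/3J and not for its age change, but all 6 BPH/2J libraries of the age comparison also entered those differences, so its test is not independent of the choice. Every 22-week library stood above every 4-week library, the lowest 22-week value being 75.8 CPM and the highest 4-week value 63.6 CPM. The log2 change was 0.68 ± 0.12 (SE), a 1.60-fold rise, with an adjusted p of 0.00145 in edgeR's quasi-likelihood test, adjusted by Benjamini-Hochberg across the 15277 rows. In that comparison 41% of tested rows passed the test, 19.9% as higher at 22 weeks, so a call is common here. An exact two-sided permutation test on log2 CPM gave p = 0.1, the smallest that 3 against 3 libraries allow. The authors' deposited table gives the ages in the other order, 4 over 22 weeks, with a log2 fold change of -0.69 and a false discovery rate of 1.82e-06.

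The sorted cells carried their defining markers in every group. The summed level of 7 endothelial markers lay between 10674 and 10893 CPM in 22-week BPH/2J, between 10368 and 10836 CPM in 4-week BPH/2J and between 8057 and 8396 CPM in BPN/3J. Cdh5, endothelial cadherin, the most abundant of them, averaged 3048 ± 202, 3180 ± 93.9 and 2404 ± 41.8 CPM in these groups, a log2 change with age of -0.06 ± 0.08 (adjusted p = 0.574). Of the 7 markers, 2 rose and 1 fell with age, against 19.9% and 21.1% of all tested rows, and 5 were higher and 1 lower in 22-week BPH/2J than in BPN/3J, against 19.8% and 18.2%. In 4-week BPH/2J over BPN/3J, 3 were higher and 0 lower, against 27.8% and 25.3%. The part of these shifts in the Lppr1 values was not tested. In such bulk samples, fewer cells of a type and less RNA per cell cannot be told apart.

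Because Lppr1 is known from neurons, nerve markers were set beside it. Of 16 neuron markers, 9 have no row in the table used here, among them Snap25, Syt1, Elavl4, Th and Chat. The summed level of the other 7 lay between 24.6 and 34.7 CPM in 22-week BPH/2J, between 33.7 and 40.6 CPM in 4-week BPH/2J and between 23.8 and 30.9 CPM in BPN/3J. These sums overlapped between 22-week BPH/2J and BPN/3J and did not overlap between 4-week BPH/2J and BPN/3J. The most abundant of them was Uchl1, a ubiquitin hydrolase of neurons that other cells also make, at 19.3 ± 5.33, 28.1 ± 1.77 and 14.0 ± 2.94 CPM. Gap43, a growth cone protein, was the 1 of 4 tested members higher in 22-week BPH/2J than in BPN/3J (19.8% of all tested rows were), at 0.398 ± 0.115 against 0.116 ± 0.0820 CPM (adjusted p = 0.0316), and it fell with age (log2 change -1.44 ± 0.39, adjusted p = 0.0132), opposite to Lppr1. Uchl1 fell with age too (adjusted p = 0.0364), which made 2 of 4, against 21.1% of all tested rows. In 4-week BPH/2J over BPN/3J, Gap43 was 9.13-fold and Uchl1 2.00-fold higher (adjusted p = 0.000307 and 0.00112) and Map2, a dendrite protein, was lower (adjusted p = 0.0470), so 2 of 4 were higher and 1 lower, against 27.8% and 25.3% of all tested rows. So few tested members describe these genes and not neurons as a whole. The 9 markers of Schwann cells and other glia summed to 13.9 to 19.5 CPM in 22-week BPH/2J. Their sums were 9.03 to 11.9 CPM in 4-week BPH/2J and 11.5 to 15.3 CPM in BPN/3J. At 22 weeks all 6 tested members had higher fitted levels in BPH/2J (log2 0.08 to 1.19, median 0.59), without a call (adjusted p = 0.102 to 0.830). In 4-week BPH/2J over BPN/3J, 1 of the 6, Ngfr, was higher and 1, Cdh19, lower (adjusted p = 0.0194 and 0.0308), against 27.8% and 25.3% of all tested rows. With age 2 of the 6 glial markers, Mbp and Cdh19, rose, against 19.9% of all tested rows. In BPN/3J the glial marker Fabp7 had no read. It had only 2, 0 and 2 reads in 22-week and 6, 7 and 6 reads in 4-week BPH/2J, and did not pass the filter on low counts. Mbp, myelin basic protein, was the most abundant of them at 7.63 ± 1.78, 5.01 ± 0.124 and 6.64 ± 0.769 CPM.

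Markers of other heart cells were also present. Summed cardiomyocyte markers lay between 448 and 534 CPM in 22-week BPH/2J, 341 and 552 CPM in 4-week BPH/2J and 766 and 969 CPM in BPN/3J, and fibroblast markers at 315 to 410, 298 to 474 and 476 to 524 CPM. Mural markers lay at 1354 to 1629, 1400 to 1754 and 1100 to 1257 CPM, macrophage markers at 146 to 183, 282 to 498 and 242 to 387 CPM, and lymphocyte markers at 22.6 to 51.8, 17.4 to 27.0 and 19.5 to 22.8 CPM, always in the same order of groups. The most abundant member of each of these lists was Mb, Dcn, Rgs5, Lyz2 and Cd79a, in that order of lists. Between the lines at 22 weeks, 7 of 9 cardiomyocyte, 5 of 6 macrophage and 2 of 6 fibroblast markers were lower in BPH/2J, against 18.2% of all tested rows. Of the 8 mural markers, 1 was higher (19.8% of all tested rows were), Rgs5 of pericytes (776 ± 69.1 against 470 ± 50.4 CPM, adjusted p = 0.000547), and the median log2 difference of the list was 0.01. The lower fibroblast markers were Dcn, a matrix proteoglycan (219 ± 51.5 against 347 ± 20.6 CPM, adjusted p = 0.0265), and Tcf21, while Col1a1 and Pdgfra had log2 differences of 0.43 and 0.12 without a call. Of the 5 lymphocyte markers, 1 was higher. In 4-week BPH/2J over BPN/3J, 9 of 9 cardiomyocyte, 3 of 6 fibroblast and 1 of 5 lymphocyte markers were lower, against 25.3% of all tested rows. In that comparison 2 fibroblast, 3 mural and 1 lymphocyte markers were higher, against 27.8%, and 0 of 6 macrophage markers were called. With age in BPH/2J, 6 of 6 macrophage markers and 2 of 8 mural markers fell, against 21.1% of all tested rows, 3 of 5 lymphocyte markers and 1 of 9 cardiomyocyte markers rose, against 19.9%, and 2 of 6 fibroblast markers rose and 2 fell. The part of these cell types, nerve and glia included, in the Lppr1 values was not tested.

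None of the tested genes that flank Lppr1 differed between the lines to a like degree. The 10 nearest rows on each side on chromosome 4 were taken in the order of the reference annotation. Of these 20 rows, 16 passed the filter on low counts and were tested. Between 22-week BPH/2J and BPN/3J, 1 of the 16 was higher and 2 were lower, 18.8% in all, against 38% of all tested rows (19.8% higher and 18.2% lower). With 20 rows on each side, 34.4% of 32 tested rows were called. The log2 differences of the 16 ran from -1.09 to 0.34, with a median size of 0.24, against 0.26 over all tested rows, while that of Lppr1 was 9.42. A size of at least 1 was reached by 1 of the 16, against 9.59% of all tested rows. The nearest rows carried almost no reads. Gm12439, a processed pseudogene on the one side, had at most 4 reads in a library, and so did Acnat1, an acyl-CoA N-acyltransferase on the other side. Acnat1 had 1, 2 and 1 reads in 22-week BPH/2J, none in 4-week BPH/2J and 4, 4 and 3 reads in BPN/3J, so the row next to Lppr1 was low in every group. The annotation lists 11 further genes between these 2 rows, Gm12451 and Acnat2 among them, which were not analysed here.

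The largest fitted difference among the 16 tested rows went the other way. Nr4a3, an orphan nuclear receptor of the early response to stimulation, was at 21.6, 20.8 and 25.9 CPM in 22-week BPH/2J, 26.9, 20.6 and 23.4 CPM in 4-week BPH/2J and 47.8, 47.2 and 49.8 CPM in BPN/3J. It was thus lower in both BPH/2J groups (log2 difference -1.09 ± 0.11 at 22 weeks, adjusted p = 3.38e-05) with no call for age (-0.06 ± 0.11, adjusted p = 0.694). Zfp189, a zinc finger gene, was 1.43-fold lower in 22-week BPH/2J, at 11.7 ± 1.55 against 16.7 ± 1.36 CPM (adjusted p = 0.00409). Nipsnap3b was 1.26-fold higher, at 24.3 ± 0.853 against 19.2 ± 2.00 CPM (adjusted p = 0.0162), a call lost without replicate 1 of 22-week BPH/2J (adjusted p = 0.0520) or replicate 2 or 3 of BPN/3J (adjusted p = 0.0635 and 0.0587). Rnf20, which attaches ubiquitin to histone H2B, and Erp44, a chaperone of the secretory pathway, differed by log2 0.11 ± 0.05 and 0.02 ± 0.05 and were not called (adjusted p = 0.121 and 0.795). Scaling by library totals alone gave 5 higher and 2 lower neighbours, and 62.5% of all calls were then higher in BPH/2J against 52.0% with TMM. Fitting only the 2 groups compared gave 6 called neighbours, with 6604 of 15024 rows called in all, against 5810 of 15277 in the main fit. Leaving out replicate 1 of 4-week BPH/2J also gave 6, with 7117 of 15578 rows called in all.

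**Figure D2:**
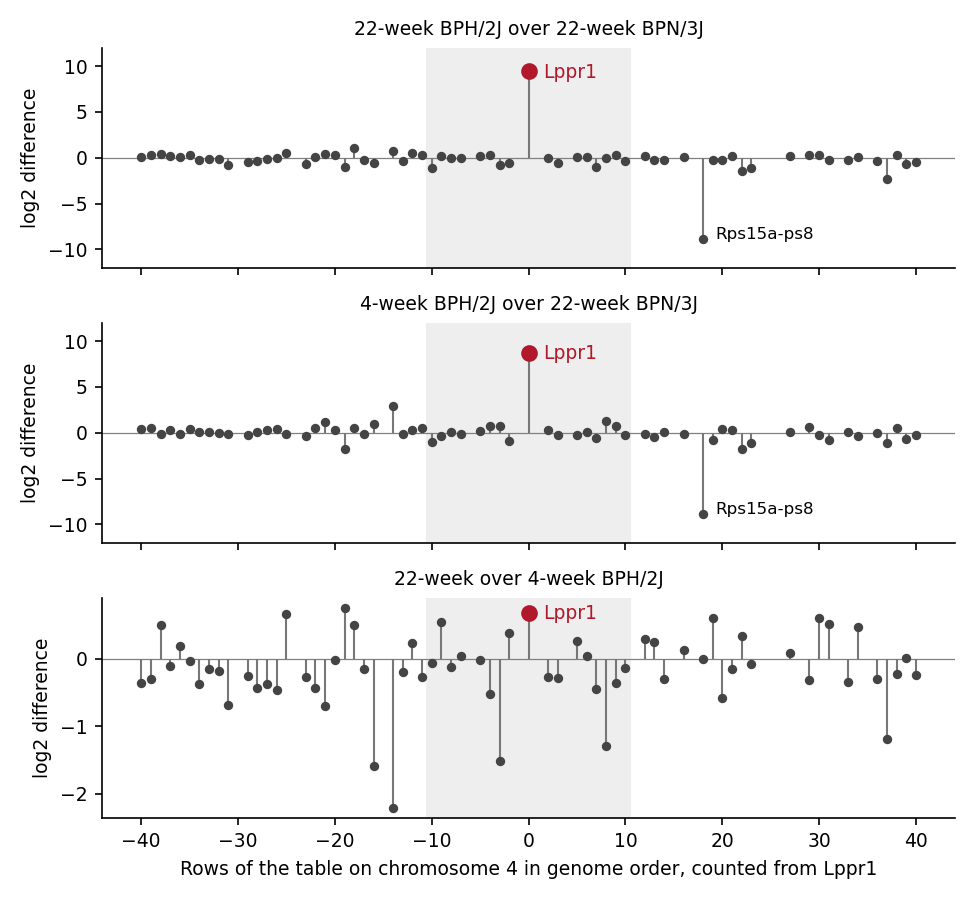
Log2 differences of the tested rows of chromosome 4 around Lppr1, in genome order counted from Lppr1 (x axis), for 3 comparisons. The grey band holds the 10 nearest rows on each side, whose differences between the lines at 22 weeks stay within -1.09 and 0.34, while Lppr1 reaches 9.42. The age panel has a narrower scale, and there Lppr1, at 0.68, lies above the highest point in the band, 0.54. Outside the band a point lies higher than Lppr1, at 0.76.

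Between 4-week BPH/2J and BPN/3J, 9 of the 16 neighbours passed the test, 5 as higher and 4 as lower (56.2%, against 53.1% of all tested rows, 27.8% higher and 25.3% lower). A size of at least 1 was reached by 2 of them, against 14.9% of all tested rows. Smc2, a subunit of condensin, which packs chromosomes in mitosis, gave the largest of these differences at 66.1 ± 3.58 against 27.6 ± 0.321 CPM. With age in BPH/2J, 7 of the 16 passed, 2 as higher and 5 as lower at 22 weeks (43.8%, against 41% of all tested rows, 19.9% higher and 21.1% lower), and 2 had a size of at least 1, against 9.4% of all tested rows. Smc2 fell to 27.0 ± 3.53 CPM at 22 weeks, against 66.1 ± 3.58 CPM at 4 weeks (log2 change -1.29 ± 0.09, adjusted p = 1.16e-05). Stx17, a SNARE protein of autophagosomes, rose to 65.6 ± 0.894 CPM, against 45.0 ± 5.95 CPM (log2 change 0.54 ± 0.08, adjusted p = 0.000668). Msantd3, Mrpl50, a protein of the mitochondrial ribosome, Nipsnap3b and Tmeff1 also fell, by log2 changes of -0.52, -0.27, -0.36 and -1.51, and Tmem246 rose by 0.27. Of these, Tmeff1 had at most 21 reads in any library and lost its call without replicate 1 of 22-week BPH/2J (adjusted p = 0.0506). Mrpl50 lost its call without replicate 3 of either age (adjusted p = 0.0754 without that of 22 weeks and 0.0696 without that of 4 weeks), and Tmem246 without replicate 2 or 3 of 22 weeks (adjusted p = 0.0502 and 0.100) or replicate 2 of 4 weeks (adjusted p = 0.0986). The age change of Lppr1, 0.68, lay above the highest of the 16, and their changes ran from -1.51 to 0.54. With 20 rows on each side the highest change was 0.76, above that of Lppr1. Over the whole table, the change of Lppr1 was at or above that of 90.5% of tested rows.

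Farther along chromosome 4, rows with very large differences between the lines occurred in both directions. The nearest tested row that differed by at least 3 on the log2 scale, looked for after the values were seen, was the 18th row beyond Lppr1. It is Rps15a-ps8, a processed pseudogene of a ribosomal protein, with no read in any BPH/2J library and 69, 51 and 49 reads in BPN/3J, the reverse of Lppr1. Of the 991 other tested rows of chromosome 4, 27 (2.72%) differed by at least 3, against 211 of 15276 (1.38%) over the whole table.

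Within its own family Lppr1 had the highest level per length in BPH/2J and the second lowest mean in BPN/3J. All 5 Lppr genes have a row. Lppr2 had 11.2, 11.3 and 11.7 CPM in 22-week BPH/2J, 6.55, 5.34 and 5.89 CPM in 4-week BPH/2J and 10.1, 9.07 and 12.0 CPM in BPN/3J. It rose with age in BPH/2J (log2 change 0.94 ± 0.13, adjusted p = 0.000261), as Lppr1 did, and was not called between the lines at 22 weeks (0.13 ± 0.12, adjusted p = 0.414). Lppr3 was at 7.16, 8.04 and 5.99 CPM in 22-week BPH/2J, 9.52, 8.30 and 7.92 CPM in 4-week BPH/2J and 9.95, 11.0 and 14.7 CPM in BPN/3J. It was lower in 22-week BPH/2J than in BPN/3J (-0.75 ± 0.16, adjusted p = 0.00496), against the direction of Lppr1, and was not called for age (-0.28 ± 0.16, adjusted p = 0.199). Lppr4, which acts at synapses in brain, had 0 to 12 reads in a library, and Lppr5 0 to 18 reads. Neither passed the filter on low counts. A single library, replicate 3 of 22-week BPH/2J, supplied those 18 reads, and both other replicates had 4.

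Per length, mean levels in 22-week BPH/2J ran from 12.4 RPKM for Lppr1 over 4.34 ± 0.109 for Lppr2 and 1.62 ± 0.236 for Lppr3 to 0.0651 ± 0.0606 for Lppr5 and 0.00902 ± 0.00901 for Lppr4. In 4-week BPH/2J they were 7.72 RPKM for Lppr1, 2.26 ± 0.232 for Lppr2, 1.97 ± 0.192 for Lppr3, 0.0345 ± 0.0151 for Lppr4 and 0.0104 ± 0.00903 RPKM for Lppr5. In BPN/3J, Lppr2 led with 3.96 ± 0.568 RPKM, followed by Lppr3 with 2.73 ± 0.565, and then Lppr4 with 0.0322 ± 0.0121, Lppr1 with 0.0174 and Lppr5 with 0.00796 ± 0.00786 RPKM. The ranges of Lppr1 and Lppr5 overlapped in BPN/3J.

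**Figure D3:**
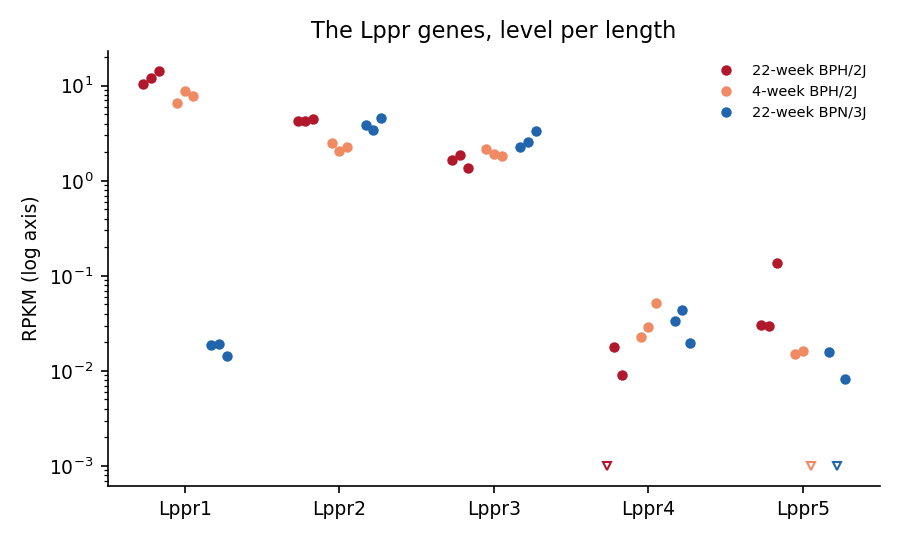
Level per length (RPKM, log axis) of the 5 Lppr genes in each library, coloured by group, with open triangles for libraries with 0 reads. Lppr1 averages 12.4 RPKM in 22-week BPH/2J and 0.0174 RPKM in BPN/3J, while Lppr2 and Lppr3 stay between 1.62 and 4.34 RPKM on average in all groups.

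The enzymes and receptors of LPA and S1P differed between the lines in both directions. Besides Lppr1, 27 genes of the list had a row: the other Lppr genes, lipid phosphate phosphatases, and receptors and enzymes of LPA and S1P. Of the 25 tested, 8 were higher and 5 lower in 22-week BPH/2J than in BPN/3J, 52.0% against 38% of all tested rows. Their median log2 difference was 0.07, against 0.02 over all tested rows. The calls of Ppap2c, Sgpp1, Sgpp2 and S1pr4 were each lost when a library was left out. Among the phosphatases, Ppapdc2, which acts on isoprenoid phosphates, was at 51.8, 52.5 and 52.6 CPM in 22-week BPH/2J, 32.9, 33.9 and 31.3 CPM in 4-week BPH/2J and 28.7, 25.5 and 21.7 CPM in BPN/3J. It was 2.07-fold higher between the lines at 22 weeks (adjusted p = 1.51e-05) and rose 1.60-fold with age (adjusted p = 0.000224), and its groups followed the order of those of Lppr1. That order was not particular to Ppapdc2. The group means of Ppap2b, Ppapdc1b, Sgpp1, Spns2 and Enpp2, among others, also followed it. Ppap2b, the most abundant of the phosphatases, was 1.26-fold higher, at 649 ± 50.3 against 517 ± 50.2 CPM (adjusted p = 0.0120).

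Among the receptors, Lpar4 was higher in 22-week BPH/2J at 17.5 ± 1.42 against 6.42 ± 0.922 CPM (log2 difference 1.45 ± 0.11, adjusted p = 7.69e-06). S1pr1, the main S1P receptor of endothelium, was lower at 697, 738 and 727 CPM in 22-week BPH/2J against 1345, 1291 and 1155 CPM in BPN/3J (log2 difference -0.81 ± 0.14, adjusted p = 0.00158). The largest difference of the list was that of Sphk1, a kinase that makes S1P, at 2.29 ± 0.363 CPM in 22-week BPH/2J against 9.84 ± 0.351 CPM in BPN/3J (log2 difference -2.10 ± 0.14, adjusted p = 2.33e-06). With age, 6 of the 25 rose and 5 fell in BPH/2J, 44.0% against 41% of all tested rows. Lpar6 and Ppap2a rose, to 98.6 ± 8.40 and 167 ± 17.5 CPM at 22 weeks, against 62.1 ± 12.1 and 117 ± 16.6 CPM at 4 weeks (adjusted p = 0.00378 and 0.00666). Lpar4 fell to 17.5 ± 1.42 CPM, against 24.7 ± 1.11 CPM (adjusted p = 0.00380).

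**Figure D4:**
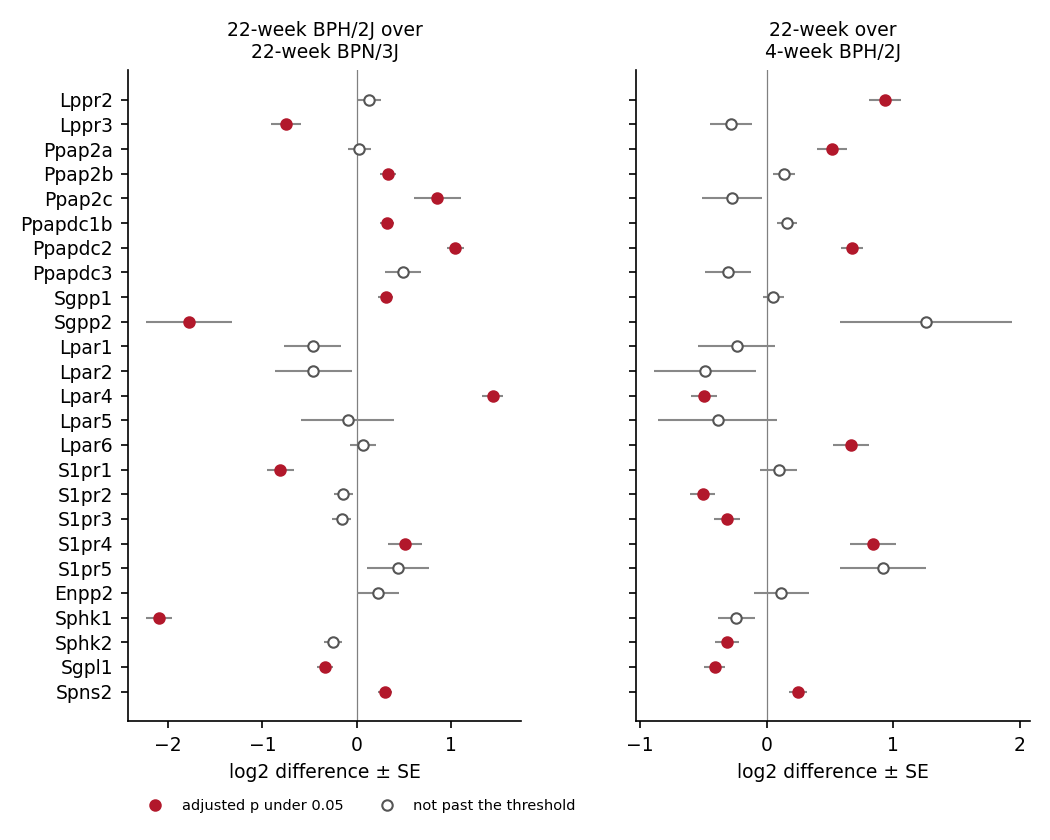
Log2 differences with their SE for the 25 tested genes of the Lppr, lipid phosphatase, LPA and S1P list without Lppr1, for 22-week BPH/2J over BPN/3J (left) and for 22 over 4 weeks in BPH/2J (right), with filled points for an adjusted p under 0.05. On the left 8 genes are higher and 5 lower, from -2.10 for Sphk1 to 1.45 for Lpar4.

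Of the 6 genes with the pattern most like that of Lppr1, 3 were processed pseudogenes. The share of pseudogenes among all rows was not counted here. This count and those of the next paragraph thus lack a base share. Likeness was measured over the 9 libraries as the root mean square difference of log2 CPM after each gene was centred on its own mean, and 14763 tested genes with a symbol were compared. The closest were Gm13841 (0.39), Rps13-ps1 (0.58), Tpm3-rs7 (0.65), Gm13225 (0.80), Pcna-ps2 (0.83) and Eno1b (0.89). The libraries fall into groups by line and age, and all 6 share with Lppr1 the step between the lines, so the measure is a description. Gm13841, Rps13-ps1 and Pcna-ps2 are processed pseudogenes, and Eno1b and Tpm3-rs7 share 84.5% and 69.4% of their 50-base windows with other genes, mostly Eno1 and Tpm3. The age step of Lppr1 entered the measure too, so age differences of these genes are given without a test. Gm13225, also on chromosome 4, had 20.2 ± 0.637, 12.9 ± 1.12 and 0.0694 ± 0.0352 CPM in 22-week BPH/2J, 4-week BPH/2J and BPN/3J. Its log2 difference of 22 over 4 weeks was 0.65 ± 0.10. Gm13841 showed 78.3 ± 6.23, 73.2 ± 6.42 and 0.230 ± 0.0863 CPM in the same order, and an age difference of log2 0.10 ± 0.09. Among the 16 tested neighbours of Lppr1 the closest, Nipsnap3b, had a difference of 3.80 and ranked 1688th.

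The on and off contrast of Lppr1 between the lines was shared by few rows. Only 9 rows, Lppr1 included, had at most 10 reads in each BPN/3J library and a mean of at least 5 CPM in both BPH/2J groups. Of these 9, 3 lie on chromosome 4, Lppr1 among them, as do 1220 of all 18094 rows. Lppr1 was second to Gm13841 by mean CPM over the BPH/2J groups. By annotation 4 of the 9 are protein-coding, 4 are pseudogenes and 1 was not matched. Lppr1 has 8 exons in its longest transcript and Gm13225 has 5, while Eno1b has 2 and Rps13-ps1, Pcna-ps2, Gm11868, Gm13841 and Eif3j2 have 1. The share of 50-base windows found in other genes was 6.84% for Lppr1, 27.0% for Gm13225, 41.5% for Gm11868 and 63.8% to 100.0% for the other 5 rows with a gene model. Reads of those copies can be split with their parent genes, so their levels are uncertain. The reverse pattern, at most 10 reads in every BPH/2J library and at least 5 CPM in BPN/3J, held for 12 rows. Of these, 8 are pseudogenes and 2 protein-coding, and 3 of the 12 lie on chromosome 4. Among the highest with a symbol were Ftl2, Serpina3h, Serpina3i, Gm10020, Gm14513, Gm8420 and Gm10093, at 115 down to 8.41 CPM in BPN/3J.

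**Figure D5:**
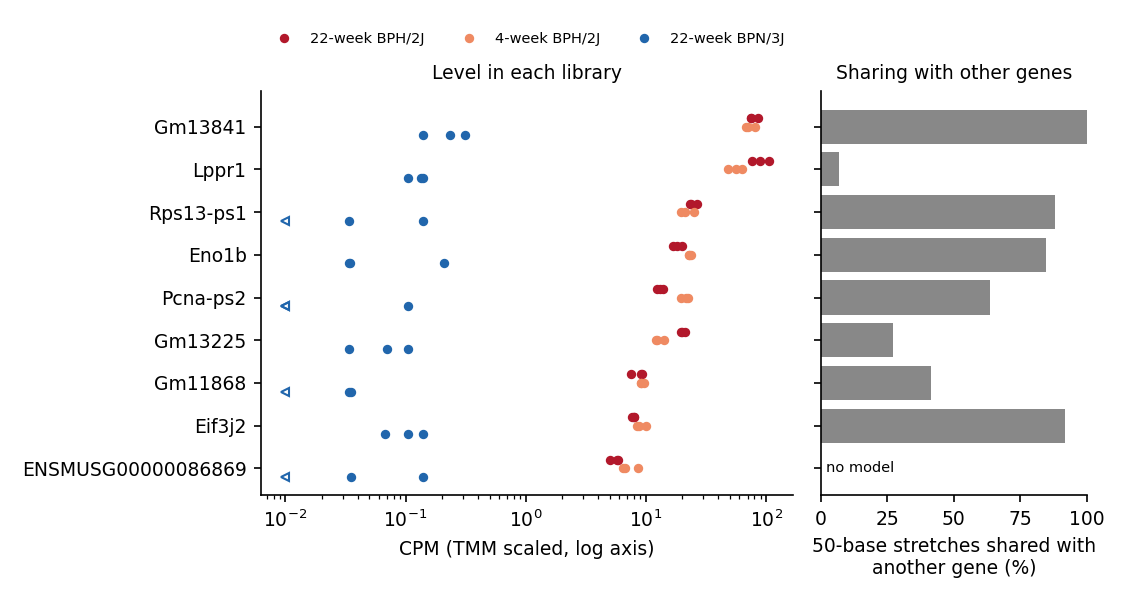
The 9 rows with at most 10 reads in every BPN/3J library and at least 5 CPM in both BPH/2J groups. Left, TMM-scaled CPM in each library on a log axis, with open triangles for libraries with 0 reads. Right, the share of each gene's 50-base windows that occurs in a transcript of another gene, which is 6.84% for Lppr1.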

How the data were processed

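RNA of bead-sorted cardiac endothelium was sequenced in 9 libraries, 3 per group. The authors aligned reads with TopHat2 2.0.13 to mm9 and counted with featureCounts, per the submitters' processing notes; the sources used here state neither strandedness nor multi-mapping settings. The deposited table holds whole-number counts for 18094 rows, CPM (counts per 1000000 library counts) and gene lengths, and no row totals under 10 counts. The deposited CPM equals count over library total within 0.0005. It also holds the authors' log2 fold changes and p-values with false discovery rates.

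From the deposited counts, edgeR 4.0.16 (R 4.3.3) was run with filterByExpr (15277 rows kept), TMM scaling and the quasi-likelihood test on all 9 libraries, with Benjamini-Hochberg adjustment and a threshold of 0.05. SE is the log2 value divided by the square root of F. RPKM is TMM-scaled CPM per kilobase of deposited length. Intervals are exact 95% Poisson-based intervals. The test was checked on simulated data. Lppr1, its lists and the comparisons were chosen with earlier results of these data known. Named genes are Lppr1, its 10 nearest rows on each side, members of the lipid lists, the 6 most alike genes, up to 8 rows with a symbol for each on and off pattern, and the most abundant marker of each cell list. A gene that this rule would name is not reported here. GENCODE M21 (GRCm38) gave names, gene order and transcripts for 17133 matched rows. No coordinates are given, as the builds differ. Alternatives were other scalings, filters, DESeq2 1.42.0, limma-voom (limma 3.58.1), fitting 2 groups, a replicate block, a prior count of 2, other numbers of neighbours and leaving out each library.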

Additional observations from a re-analysis of the deposited data

How the results depend on the processing

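The age change of Lppr1 kept its direction and its call under every alternative run, with log2 changes of 0.56 to 0.79 and adjusted p-values of 4.24e-05 to 0.00667; the lowest and highest changes came without replicate 3 and without replicate 1 of 22-week BPH/2J. A prior count of 2 gave log2 differences of 8.87 for 22-week and 8.19 for 4-week BPH/2J over BPN/3J, which follows from the few BPN/3J reads. Leaving out 1 library at a time gave 9.30 to 9.54 and 8.64 to 8.84. Of the neighbours, 7 were called between the lines at 22 weeks with library totals alone and 6 with only the 2 groups fitted. All rows called were then 6154 of 15277 and 6604 of 15024, against 5810 of 15277 in the main fit. Leaving out a library gave 2 to 6 called neighbours, with 4362 of 15568 to 7117 of 15578 rows called in all. With 5 rows on each side, 1, 5 and 4 of 7 tested were called for 22-week BPH/2J over BPN/3J, 4-week BPH/2J over BPN/3J and age. These are 14.3%, 71.4% and 57.1%. With 20 rows on each side, 11, 18 and 18 of 32 tested were called. These are 34.4%, 56.2% and 56.2%, against 38%, 53.1% and 41% of all tested rows. The share called between the lines at 22 weeks thus depended on how many neighbours were taken. The called lipid genes numbered 10 to 15 between the lines and 9 to 11 for age when a library was left out. All rows called then numbered 4362 to 7117 between the lines at 22 weeks and 4606 to 7383 for age. Among 43 calls of the neighbours and the lipid genes, 720 of 772 recomputed values kept direction and call, 52 lost the call and 0 reversed. Calls of the cell markers were not recomputed in this way, nor were the values of the most alike genes and the on and off rows. The calls lost in 5 or more settings were those of S1pr4 (22-week lines), S1pr3 and Sphk2 (age), and Tex10 and Tmem246 (4-week BPH/2J over BPN/3J). Deviations of libraries with the same replicate number correlated at -0.16 to 0.08. These values show no strong shared deviation, but they cannot settle whether the numbers pair the libraries, and the labels do not say. With the replicate block, the age change of Lppr1 was 0.68 (adjusted p = 0.000536) and the differences to BPN/3J were 9.42 and 8.74. The called neighbours then numbered 4, 8 and 7, and the called lipid genes 12 between the lines and 11 for age. All rows called with the block numbered 5261, 7723 and 5758 of 15277 in the 3 comparisons. With 11 Lppr1 reads in all of BPN/3J, depth limits how low its level there can be said to be.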
